A study of Mus musculus with 8 samples.

Results

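Calorie restriction is widely studied through the energy sensor AMPK and the PGC-1 coactivators, and the transcripts of 10 genes of this axis were examined in the lacrimal gland (LG), the main source of tear fluid. The genes were taken by symbol, with earlier results of these data known: the AMPK subunits Prkaa1, Prkaa2, Prkab1, Prkab2, Prkag1 and Prkag2, the coactivators Ppargc1a and Ppargc1b, the nuclear receptor Esrra and the mitochondrial transcription factor Tfam. All 10 were found among the 24552 genes of the count table, and all 10 passed the filter on low counts that left 11211 genes to test.

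Exorbital LGs came from female C57BL/6J mice that entered the experiment at 6 to 7 months of age and were euthanized at 10 to 11 months. One group of 4 mice ate ad libitum (AL), and the other 4 received a 40% calorie restriction (CR) for 4 months. The mice carried no engineered allele. CR altered both how much the mice ate and when they ate it, and the effects of amount and timing cannot be told apart. The study drew on mice of 2 cohorts at separate sites, in one of which the CR chow was also enriched in vitamins and micronutrients, and the sources used here do not say which cohort gave these libraries. A whole gland holds acinar, ductal, myoepithelial, stromal and immune cells, and in bulk RNA fewer cells of a type and less RNA per cell cannot be told apart.

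AMPK is a kinase made of a catalytic α, a scaffold β and a nucleotide-binding γ subunit, each encoded by alternative genes, and it is switched on by phosphorylation of α and by binding of AMP or ADP to γ when cellular energy runs low. PGC-1α and PGC-1β, the products of Ppargc1a and Ppargc1b, bind no DNA themselves and work by joining transcription factors such as ERRα, the product of Esrra, to raise genes of mitochondrial respiration and fatty acid oxidation. Tfam packages and transcribes mitochondrial DNA. AMPK acts largely through its kinase activity, and PGC-1α is also regulated as a protein, neither of which was measured by RNA sequencing.

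The promoter stretches of 4 genes are shown because they belong to the 2 catalytic subunits, which are compared below as a pair, to Ppargc1a, the gene with the largest difference of the 10, and to Tfam, a textbook downstream gene of PGC-1. Each is the 250 bases before the RefSeq transcription start (GRCm38.p6), written 5′ to 3′ on the strand of the gene, with capitals for a core of the cyclic AMP response element (TGACG, or CGTCA on the other strand) or an ETS factor site (CCGGAAG or its complement).
Ppargc1a, chr5:51567726-51567975, minus strand: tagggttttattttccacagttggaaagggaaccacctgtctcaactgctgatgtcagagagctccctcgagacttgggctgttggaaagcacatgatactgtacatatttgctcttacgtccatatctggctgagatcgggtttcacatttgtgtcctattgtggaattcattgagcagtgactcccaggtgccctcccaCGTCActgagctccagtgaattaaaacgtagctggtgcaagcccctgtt
Prkaa2, chr4:105109899-105110148, minus strand: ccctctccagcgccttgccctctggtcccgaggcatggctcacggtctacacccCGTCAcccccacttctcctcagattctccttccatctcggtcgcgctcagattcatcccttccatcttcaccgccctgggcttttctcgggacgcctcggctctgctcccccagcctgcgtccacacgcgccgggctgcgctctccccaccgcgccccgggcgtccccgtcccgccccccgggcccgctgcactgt
Prkaa1, chr15:5143611-5143860, plus strand: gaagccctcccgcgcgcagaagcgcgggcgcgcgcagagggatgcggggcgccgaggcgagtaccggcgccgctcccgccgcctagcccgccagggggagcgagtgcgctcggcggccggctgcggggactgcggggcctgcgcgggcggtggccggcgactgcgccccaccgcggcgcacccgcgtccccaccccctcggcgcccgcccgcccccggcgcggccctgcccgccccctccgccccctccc
Tfam, chr10:71238045-71238294, minus strand: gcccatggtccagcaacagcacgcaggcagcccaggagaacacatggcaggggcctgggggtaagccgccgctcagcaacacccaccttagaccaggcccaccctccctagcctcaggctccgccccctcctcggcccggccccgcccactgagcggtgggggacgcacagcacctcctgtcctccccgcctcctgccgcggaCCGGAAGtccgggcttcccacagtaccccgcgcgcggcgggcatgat
In Ppargc1a the core lay 49 bases before the start, and in Prkaa2 it lay 196 bases before it. The Tfam stretch held an ETS site 47 bases before the start, and the Prkaa1 stretch held neither motif and had a GC content of 85.2%, against 48.0% for Ppargc1a. RefSeq windows were matched for 9 of the 10 genes, with 11 windows that ran from 250 bases before to 50 after the start. This core was found in 20.8% of all 32851 promoter windows and in those of Prkaa2, Ppargc1a and Prkag1. The ETS site was found in 8.86% of all windows and in those of Prkab1, Tfam and Prkag1. The estrogen-related receptor element TCAAGGTCA (0.423% of all windows), the palindromic NRF1 site (0.971%) and the full cyclic AMP element TGACGTCA (1.79%), which contains the core on both strands, had 0 matches in the windows of the 9 genes. The Ppargc1a window lay at the outer 5′ end of that gene, which has 5 annotated transcripts, and starts further inside it were not searched. Both strands were searched, the motifs were picked after expression values had been seen, and a match describes letters, not binding.

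Libraries held 12051881 to 22156511 counts, and 3 counts corresponded to 0.152 to 0.231 CPM (counts divided by each library's total and RLE factor). The 10 most counted genes of a library took 62.4% to 73.4% of its counts. LG markers were abundant in every library, with a sum over 8 markers of 118536 to 190016 CPM, led by the odorant-binding protein gene Obp1a and the carbonic anhydrase gene Car6. Obp1a was at 147667 to 162883 CPM in AL and at 90031, 66902, 58969 and 152838 CPM in CR. Car6 had means of 19107 CPM in AL and 61461 CPM in CR. In CR replicates 1 to 3 Obp1a lay below its AL range and Car6 above its own, which the sum does not show. How specific each marker is to the LG was not tested. Transcripts typical of the acini of the parotid, a neighbouring salivary gland, were also present, and whether tissue of that gland was included in the samples was not tested. The sum of 6 such markers (Amy1, Bpifa2, Prb1, Prh1, Prp2 and Dnase1) was 2014 to 25237 CPM in AL and 19850 to 236902 CPM in CR, where CR replicate 4 lay within the AL range and the other 3 CR libraries were far above it. Bpifa2 and Amy1 made up most of this sum in all libraries but AL replicate 4, where Dnase1 gave 1777 of the 2014 CPM, and for Prb1, Prh1 and Prp2 CR replicate 4 was above every AL library (419, 361 and 62.1 CPM) and above CR replicate 3. Prh1 and Prp2 were at 0 in AL replicates 2 and 4, and the adipocyte gene Lep had 5 counts over all 8 libraries. White adipocyte markers summed to 8.06 to 18.6 CPM in AL and 23.9 to 95.7 CPM in CR, and T and B cell markers to 2.33 to 10.7 CPM in AL and 0.50 to 1.48 CPM in CR, so that neither overlapped between diets. Skeletal muscle markers were highest in CR replicates 2 and 4, at 75.2 and 46.9 CPM, against 1.10 to 13.6 CPM in the other 6 libraries. The brown adipocyte gene Ucp1 had 3 counts over all 8 libraries. Since CR replicate 4 stood apart from its group in the parotid sum, the fold change of each of the 10 genes is also given without it.

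A gene was called when edgeR's quasi-likelihood test gave a Benjamini-Hochberg adjusted p under 0.05 over all genes tested and a change of at least 1.5-fold. Under this rule 1.98% of all genes tested were called, 1.20% higher and 0.785% lower in CR. Of the 10 genes, 1 was called higher, Ppargc1a, and 0 were called lower. At an unadjusted p under 0.05, 16.7% of all genes differed (8.62% higher and 8.10% lower in CR), against 5 of the 10, where Ppargc1a, Prkaa2, Esrra and Ppargc1b were higher in CR and Prkaa1 was lower. The diets did not overlap for 9.79% of all genes (4.63% with CR higher and 5.16% with CR lower) and for 1 of the 10, Prkaa2, with CR higher. The log2 fold change of CR over AL was above 0 for 6 of the 10 and below 0 for 4, against 51.1% above 0 over all genes tested, whose median was 0.01.

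**Figure D1:**
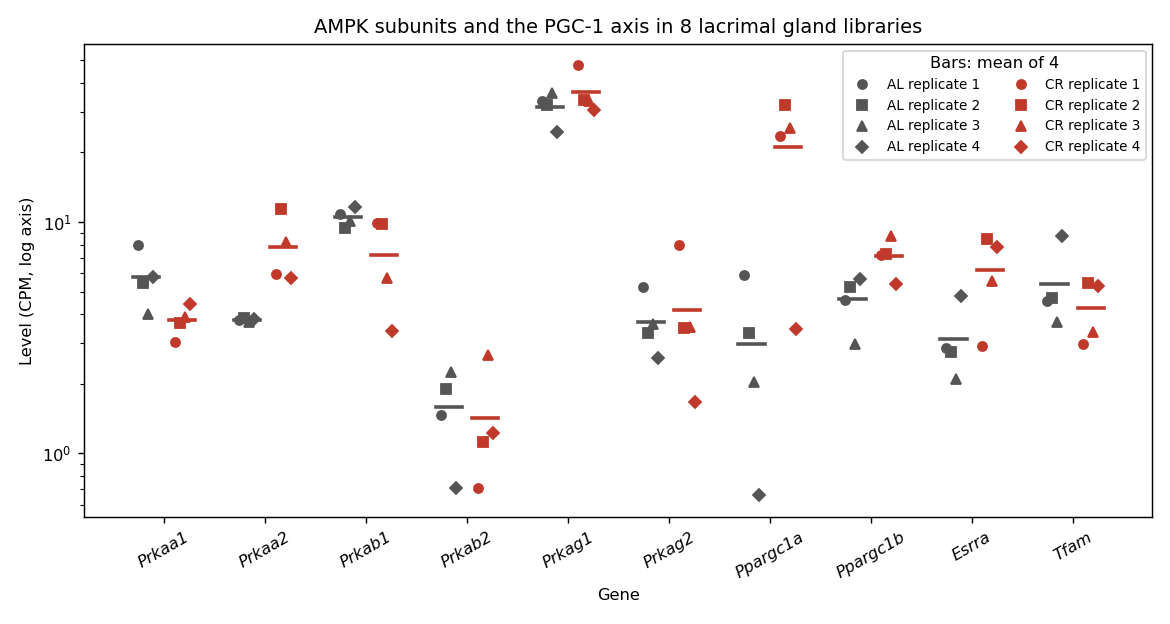
Level of each of the 10 genes in CPM on a log axis, with 1 marker per library (AL grey, CR red, shape giving the replicate number) and a bar at the mean of 4. The 3 high Ppargc1a libraries are CR replicates 1 to 3 at 23.6, 32.1 and 25.6 CPM, CR replicate 4 falls among the AL libraries at 3.44 CPM, and Prkaa2 is the 1 gene whose diets do not overlap.

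Among the 10, Prkag1 had the highest level in each of the 8 libraries, followed in AL by Prkab1. Reads were taken from transcript ends, so CPM were not divided by transcript length, and levels of different genes also carry unequal capture and priming, which was not measured.

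Neither catalytic subunit was called, and their estimates had opposite signs. Prkaa1 (chromosome 15, 5143861 to 5181899, plus strand, GRCm38) encodes α1, the more widely expressed catalytic subunit. Its levels in AL replicates 1 to 4 were 7.93, 5.45, 3.99 and 5.77 CPM, and those in CR replicates 1 to 4 were 3.04, 3.67, 3.90 and 4.44 CPM. Of the CR libraries 3 lay below all AL libraries, and CR replicate 4 lay above AL replicate 3. The mean was 5.79 ± 1.63 CPM in AL and 3.76 ± 0.580 CPM in CR (SD, n = 4 each). This was a log2 fold change of −0.62 (SE 0.28, 95% interval −1.23 to −0.01), with an adjusted p of 0.289 by edgeR's quasi-likelihood test and an unadjusted p of 0.0460. Without CR replicate 4 the estimate was −0.71 (edgeR adjusted p 0.222). The order of libraries by Prkaa1 matched that by parotid markers in 7 of 28 pairs (4 of 6 within AL, 1 of 6 within CR). For T and B cell markers it was 19 of 28 (1 of 6 within AL, 3 of 6 within CR). The part of these cell types in the difference was not tested.

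Prkaa2 (chromosome 4, 105029874 to 105109890, minus strand) encodes α2, the catalytic subunit prominent in skeletal and heart muscle. It was at 3.77, 3.86, 3.70 and 3.80 CPM in AL and at 5.94, 11.4, 8.23 and 5.72 CPM in CR. Every CR library was above every AL library, and CR replicates 1 and 4 were the lowest of their group. The AL libraries were closer together (3.78 ± 0.0647 CPM, SD, n = 4) than counting error alone would make them (an SD of 0.497 CPM), so the AL spread understates the error of this gene. The CR mean was 7.83 ± 2.65 CPM (SD, n = 4), and the log2 fold change was 1.05 (SE 0.27, 95% interval 0.45 to 1.64). edgeR's quasi-likelihood test gave an adjusted p of 0.0707, which missed the threshold, and an unadjusted p of 0.00226. The log2 fold change ran from 0.81 without CR replicate 2 to 1.17 without CR replicate 4, and of the 8 fits with a library left out the gene was called in that without CR replicate 4 (edgeR adjusted p 0.0270) and not in the other 7 (edgeR adjusted p 0.0792 to 0.223). DESeq2 (adjusted p 0.0152) and limma voom with sample weights (adjusted p 0.0486) also called the gene.

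Marker sums were compared with Prkaa2 as well. The order of libraries by Prkaa2 matched that by parotid markers in 23 of 28 pairs of libraries. For white adipocyte markers it was 24 of 28. Within AL the order matched in 3 of 6 pairs for each, and within CR in 5 of 6 for each. Neither Prkaa2 nor the white adipocyte sum overlapped between diets, so all pairs across diets matched for that reason alone. Counts over 28 pairs, for this and other genes, include pairs across diets and so partly restate the diet difference. For skeletal muscle markers the order matched in 17 of 28 pairs. When a score of parotid markers entered the edgeR fit beside diet, the Prkaa2 log2 fold change was 0.50 (SE 0.58) and the gene was not called. That score did not overlap between diets (3.78 to 7.99 in AL, 9.93 to 13.5 in CR), so diet and score can hardly be separated in this fit. The part of adipocytes and muscle in the difference was not tested.

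The 2 catalytic transcripts were also compared with each other within each library. Of the counts of both genes together, Prkaa2 took 32.2%, 41.4%, 48.1% and 39.7% in AL and 66.1%, 75.7%, 67.9% and 56.3% in CR. Prkaa1 thus gave most of the pair's counts in each AL library, and Prkaa2 gave most of them in each CR library. The exact binomial 95% intervals, which cover counting error only, reached from 38.3% to 58.0% in AL replicate 3 and from 48.8% to 63.6% in CR replicate 4, the nearest libraries of the 2 diets. The mean log2 ratio of Prkaa2 to Prkaa1 (CPM with 0.5 added) was −0.52 ± 0.36 in AL and 0.92 ± 0.49 in CR (SD, n = 4 each), a difference of 1.44. An exact two-sided permutation test over the 70 splits gave p = 0.0286, the smallest p it can give, and 0.114 after Benjamini-Hochberg adjustment over the 4 ratios compared.

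**Figure D2:**
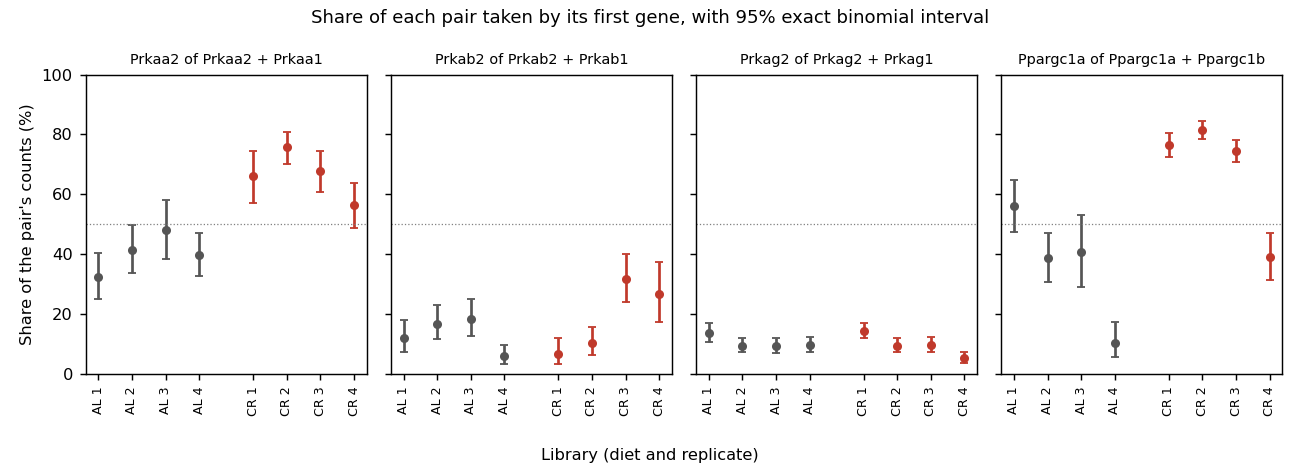
Share (%) of the counts of each gene pair taken by the first named gene, per library (AL grey, CR red), with 95% exact binomial intervals and a dotted line at 50%. The Prkaa2 share lies between 32.2% and 48.1% in AL and between 56.3% and 75.7% in CR, while the diets overlap in the other 3 pairs.

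No difference passed the test for the scaffold and nucleotide-binding subunits. Prkab1 (chromosome 5, 116013586 to 116024508, minus strand), the β1 scaffold, was at 10.9, 9.43, 10.1 and 11.6 CPM in AL and at 9.91, 9.83, 5.75 and 3.39 CPM in CR. CR replicates 3 and 4 were below all AL libraries, and CR replicates 1 and 2 were within the AL range. The mean was 10.5 ± 0.958 CPM in AL and 7.22 ± 3.21 CPM in CR (SD, n = 4 each), with a log2 fold change of −0.55 (95% interval −1.22 to 0.12, edgeR adjusted p 0.416). The estimate was −0.31 without CR replicate 4, the lowest library, and −1.42 (SE 0.66) with the parotid score in the fit.

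Prkab2 (chromosome 3, 97658193 to 97673812, plus strand), the β2 scaffold, had the lowest mean level of the 6 subunits, 1.58 ± 0.664 CPM in AL and 1.43 ± 0.851 CPM in CR (SD, n = 4 each). Its libraries ranged from 0.709 to 2.25 CPM in AL and from 0.708 to 2.66 CPM in CR. The log2 fold change was −0.14 with a 95% interval of −1.28 to 1.0, which reached about 1 log2 unit in either direction. It was −0.07 without CR replicate 4. The log2 ratio of Prkab2 to Prkab1 was 0.48 higher in CR (exact permutation p = 0.457), and this difference ran from 0.15 without CR replicate 3 to 0.85 without CR replicate 1, with 0.19 without AL replicate 4.

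Prkag1 (chromosome 15, 98812797 to 98831521, minus strand), the γ1 subunit, was at 33.3, 32.1, 36.3 and 24.6 CPM in AL and at 47.6, 33.8, 33.5 and 30.6 CPM in CR. CR replicate 1 was above every other library and the remaining CR libraries overlapped AL. Its log2 fold change was 0.20 (95% interval −0.22 to 0.62, edgeR adjusted p 0.670), the narrowest interval of the 10 genes, and the estimate ran from 0.05 without CR replicate 1 to 0.27 without CR replicate 4, with 0.09 without AL replicate 4.

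Prkag2 (chromosome 5, 24862744 to 25100642, minus strand), the γ2 subunit, averaged 3.69 ± 1.12 CPM in AL and 4.15 ± 2.66 CPM in CR (SD, n = 4 each). CR replicate 1 was the highest of the 8 libraries at 7.93 CPM and CR replicate 4 the lowest at 1.67 CPM. The log2 fold change was 0.17 (95% interval −0.77 to 1.10, edgeR adjusted p 0.904), and it was −0.34 without CR replicate 1 and 0.43 without CR replicate 4. The log2 ratio of Prkag2 to Prkag1 was 0.17 lower in CR (difference −0.17, exact permutation p = 0.629). The third γ gene, Prkag3, known mainly from skeletal muscle, had 0 counts in every library, which allows up to 0.152 to 0.231 CPM.

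Exons of Prkab2, Prkag1, Prkag2 and Esrra overlap genes annotated on the opposite strand, and the strand setting of the counting was not given in the sources used here, so reads of these partners may be included. The other 6 genes have no exon overlap on the other strand.

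On the PGC-1 side, Ppargc1a was higher in CR and was the 1 gene called. Ppargc1a (chromosome 5, 51454250 to 51567726, minus strand) was at 5.93, 3.31, 2.03 and 0.658 CPM in AL and at 23.6, 32.1, 25.6 and 3.44 CPM in CR. CR replicates 1 to 3 were well above every AL library, and CR replicate 4 was below AL replicate 1. The mean was 2.98 ± 2.24 CPM in AL and 21.2 ± 12.4 CPM in CR (SD, n = 4 each). In the edgeR fit the log2 fold change was 2.85 (SE 0.66, 95% interval 1.41 to 4.28), a 7.20-fold difference, with an edgeR adjusted p of 0.0497.

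The call lay at the threshold. TMM scaling gave an adjusted p of 0.0501, DESeq2 one of 0.0151 and limma voom with sample weights one of 0.0391. Without CR replicate 4 the edgeR adjusted p was 0.00215 and the log2 fold change 3.21, and leaving out any other single library ended the call, with log2 fold changes of 2.49 to 3.42 and edgeR adjusted p of 0.0630 to 0.158. The exact permutation test on this gene alone gave p = 0.0571.

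Ppargc1a ran closely with the parotid markers. The parotid sum was 25237, 14780, 10577 and 2014 CPM in AL replicates 1 to 4 and 214604, 236902, 186597 and 19850 CPM in CR replicates 1 to 4. The order of libraries was the same for both in 27 of 28 pairs, the exception being CR replicates 1 and 3, and it was the same in all 6 pairs within AL. Ordered by the parotid score, which weights the 6 markers equally, the agreement was 25 of 28 pairs, and 5 of 6 within AL. AL replicate 1, the AL library with the most parotid transcripts, also had the highest AL level of Ppargc1a, and CR replicate 4, the CR library with the lowest sum, had the lowest CR level. When the parotid score entered the fit beside diet, the Ppargc1a estimate was −0.37 (SE 0.95, edgeR adjusted p 0.935), in a fit where the score and the diet did not overlap. White adipocyte markers gave 24 of 28 pairs in the same order (4 of 6 within AL, 5 of 6 within CR). Endothelial markers gave 23 of 28 (6 of 6 within AL, 3 of 6 within CR), and muscle markers 17 of 28. The sums for macrophages (7 of 28), fibroblasts (8 of 28) and T and B cells (9 of 28) mostly ran in the opposite order. Within CR, however, fibroblasts and T and B cells each had the same order in 5 of 6 pairs, and macrophages in 3 of 6. The LG epithelium sum, most of which came from Obp1a and Car6, also mostly ran in the opposite order (7 of 28). Of its 8 markers, 5 had estimates above 0. Among them Sox10 was called higher in CR (log2 fold change 2.13, edgeR adjusted p 0.00746), with CR replicate 4 its lowest CR library at 26.3 CPM. The other 3, Obp1a (−0.78), Pax6 (−0.68) and Ltf (−1.16), had estimates below 0 and were not called. The part of these cell types in the difference was not tested.

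**Figure D3:**
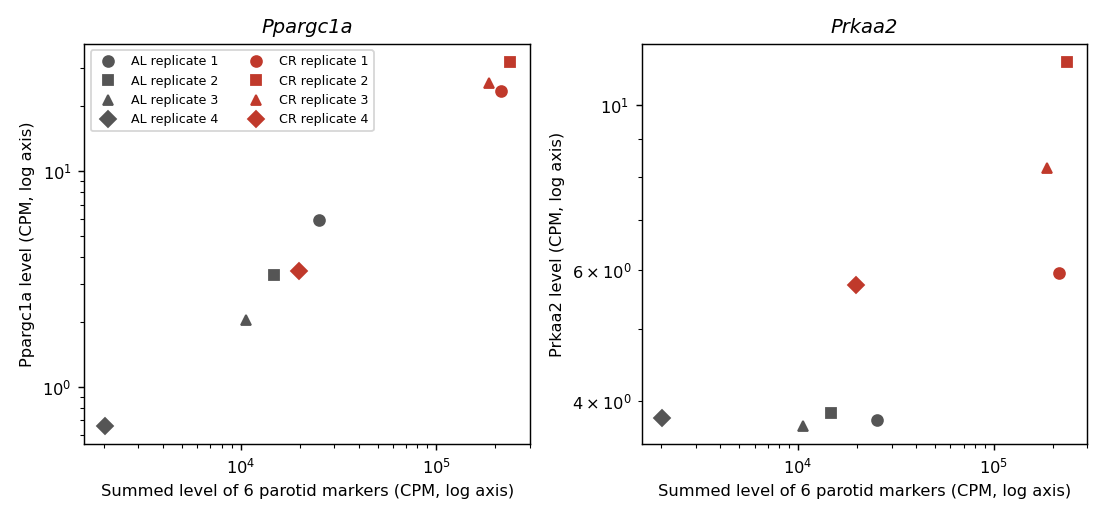
Level of Ppargc1a (left) and Prkaa2 (right) against the summed level of 6 parotid markers, both in CPM on log axes, with 1 marker per library (AL grey, CR red). Ppargc1a climbs with the parotid sum across both diets, with CR replicate 4 among the AL libraries, and Prkaa2 is higher in the 4 CR libraries (5.72 to 11.4 CPM) than in the 4 AL libraries (3.70 to 3.86 CPM).

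Ppargc1b lies on chromosome 18 (61298136 to 61400431, minus strand). Its levels were 4.62, 5.27, 2.98 and 5.67 CPM in AL and 7.22, 7.28, 8.72 and 5.39 CPM in CR. CR replicates 1 to 3 were above every AL library and CR replicate 4 was within the AL range, the same arrangement as for Ppargc1a at a smaller size. The mean was 4.63 ± 1.19 CPM in AL and 7.15 ± 1.37 CPM in CR (SD, n = 4 each), with a log2 fold change of 0.62 (SE 0.27, 95% interval 0.03 to 1.20). It was not called (edgeR adjusted p 0.269). Its order followed white adipocyte markers in 25 of 28 pairs (4 of 6 within AL, 6 of 6 within CR). For parotid markers it was 20 of 28 (2 of 6 within AL, 4 of 6 within CR). The Ppargc1b estimate was 0.81 (SE 0.60) with the parotid score in the fit and 0.73 without CR replicate 4.

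Ppargc1a took 56.2%, 38.6%, 40.6% and 10.4% of the counts of both coactivator genes in AL and 76.6%, 81.5%, 74.6% and 39.0% in CR. The first 3 CR libraries were above all AL libraries, and CR replicate 4 was not. The log2 ratio of Ppargc1a to Ppargc1b was 1.94 higher in CR, and the exact permutation test gave p = 0.0857 (0.171 adjusted over the 4 ratios).

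Esrra (chromosome 19, 6910977 to 6921813, minus strand), whose product ERRα is a main DNA-binding partner of PGC-1, was at 2.85, 2.76, 2.10 and 4.81 CPM in AL and at 2.90, 8.47, 5.57 and 7.78 CPM in CR. Here CR replicate 1, not 4, lay within the AL range, and the other 3 CR libraries were above all AL libraries. The mean was 3.13 ± 1.17 CPM in AL and 6.18 ± 2.51 CPM in CR (SD, n = 4 each). This gave a log2 fold change of 0.97 (SE 0.37, 95% interval 0.16 to 1.78), with an edgeR adjusted p of 0.203. Its order followed white adipocyte markers in 23 of 28 pairs (5 of 6 within AL, 3 of 6 within CR). For skeletal muscle markers it was 22 of 28 (4 of 6 within AL, 6 of 6 within CR). Parotid markers gave 20 of 28 (3 of 6 within each diet). T and B cell markers had the same order in 4 of 28 (0 of 6 within AL, 3 of 6 within CR). The part of these cell types in the difference was not tested. Its estimate was 1.59 (SE 0.77) with the parotid score in the fit and 0.84 without CR replicate 4.

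Tfam (chromosome 10, 71225464 to 71238280, minus strand) was at 4.54, 4.72, 3.70 and 8.71 CPM in AL and at 2.97, 5.45, 3.34 and 5.28 CPM in CR. AL replicate 4 was the highest library and the diets overlapped. The log2 fold change was −0.35 (95% interval −1.08 to 0.38, edgeR adjusted p 0.668). It was −0.02 without AL replicate 4 and −0.47 without CR replicate 4. Its sign was opposite to that of Ppargc1a, Ppargc1b and Esrra but changed with the parotid score in the fit (0.40, SE 0.69).

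**Figure D4:**
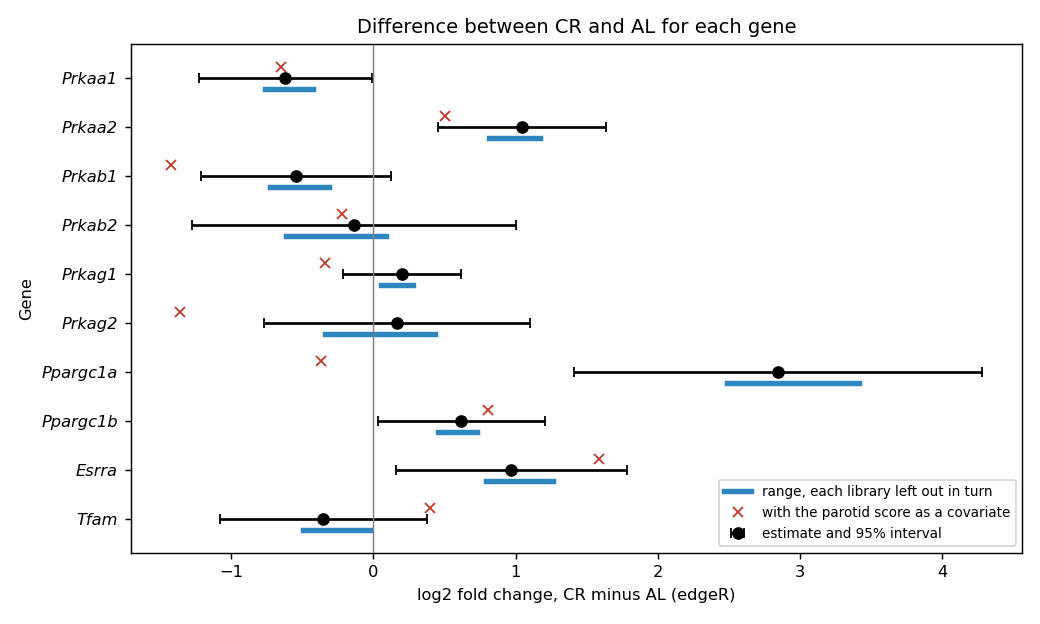
Log2 fold change of CR over AL from edgeR for each gene (point, with 95% interval), the range when each library is left out in turn (blue bar) and the value when the parotid score is in the fit (cross). Ppargc1a stays between 2.49 and 3.42 when libraries are left out and is at −0.37 (SE 0.95) with the covariate. Esrra is at 1.59 (SE 0.77) and Prkaa1 at −0.65 (SE 0.58) with it, in a fit where score and diet did not overlap.

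The other genes of the axis were described with 7 lists of 141 genes, of which 128 were in the table and 114 were tested. The 13 mitochondrially encoded mRNAs are not analysed here. Among all 11211 genes tested, edgeR called 134 higher and 88 lower in CR. DESeq2 called 385 and 317 of them, and limma voom 237 and 160. Of the 114 tested list genes, 0 were called by edgeR, DESeq2 called 6 and limma voom called 2, all higher in CR. At an unadjusted p under 0.05 in edgeR, 11 lay higher and 5 lay lower in CR, which is 14.0% of those tested against 16.7% over all genes, and their median log2 fold change was 0.09 against 0.01 over all genes tested. The counts by list below stand against 8.62% higher, 8.10% lower and 51.1% above 0 over all genes tested.

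Of 15 tested upstream kinases, phosphatases and regulators of AMPK, unadjusted p was under 0.05 for 3 genes, all higher in CR, and the list median was 0.24. Ppm1a, a phosphatase that acts on the α subunit among other kinases, was at 25.3 to 33.0 CPM in AL and 34.9 to 57.0 CPM in CR, without overlap (log2 fold change 0.75, edgeR adjusted p 0.0636). Camkk2, the calcium-dependent kinase that phosphorylates α, was at 1.69 to 4.50 CPM in AL and 4.11 to 8.97 CPM in CR (log2 fold change 1.10, edgeR adjusted p 0.120).

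Of 19 tested AMPK substrates, 2 were higher and 0 lower at that level, with a median of 0.15 that was −0.19 with the parotid score in the fit. Slc12a2, the chloride cotransporter NKCC1 that loads secretory cells with chloride, was at 101, 77.2, 67.9 and 36.0 CPM in AL and at 434, 576, 338 and 57.4 CPM in CR. CR replicates 1 to 3 were above AL and CR replicate 4 was within it, as for Ppargc1a (log2 fold change 2.32, edgeR adjusted p 0.0505). Acacb, the acetyl-CoA carboxylase that restrains fatty acid entry into mitochondria, was at 0.796 to 1.02 CPM in AL and at 5.66, 6.10, 4.21 and 0.667 CPM in CR, where CR replicate 4 was again low (log2 fold change 2.22, edgeR adjusted p 0.0656).

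Of 16 tested partner transcription factors and family members of PGC-1, 1 was higher and 1 lower. Foxo1, a forkhead factor of the fasting response, had a log2 fold change of 0.69 (edgeR adjusted p 0.196), and Esrrg, which encodes the related receptor ERRγ, had one of −0.95 (edgeR adjusted p 0.272). Esrrg thus pointed the other way from Esrra, and the third family gene, Esrrb, had 0 counts in every library. Of 17 tested regulators of PGC-1, 0 were higher and 1 lower, with a median of −0.03. This was Atf4, a stress-response transcription factor, at 165 to 213 CPM in AL and 98.9 to 156 CPM in CR without overlap (log2 fold change −0.42, edgeR adjusted p 0.293). Lpin1, a phosphatidate phosphatase that also serves as a PGC-1α partner, came next at 0.55 (edgeR adjusted p 0.351).

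Of 17 tested genes of mitochondrial DNA maintenance and transcription, the list to which Tfam belongs by function, 0 were higher and 3 lower, with a median of −0.09 that was −0.31 with limma voom and −0.26 without CR replicate 4. Mterf3, a mitochondrial transcription and ribosome biogenesis factor, was at 2.16 to 4.46 CPM in AL and 1.36 to 2.05 CPM in CR without overlap (log2 fold change −0.86, edgeR adjusted p 0.261). Tfb2m, the factor that opens mitochondrial promoters with Tfam, was at 5.95 to 9.01 CPM in AL and 2.48 to 6.17 CPM in CR (log2 fold change −0.75, edgeR adjusted p 0.209).

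Of 30 tested oxidative genes known as targets of PGC-1 and ERR, 5 were higher and 0 lower, with a median of 0.18, and 22 of the 30 were above 0. Fndc5, the precursor of the secreted peptide irisin, was at 2.47 to 3.74 CPM in AL and at 16.8, 12.9, 11.9 and 1.67 CPM in CR, the last being the lowest of the 8 libraries (log2 fold change 1.82, edgeR adjusted p 0.0917). Slc25a20, the mitochondrial carnitine-acylcarnitine carrier, was at 4.06 to 5.52 CPM in AL and at 5.24, 10.6, 11.8 and 9.89 CPM in CR (log2 fold change 0.90, edgeR adjusted p 0.113). There CR replicate 1 lay within the AL range, as it did for Esrra.

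**Figure D5:**
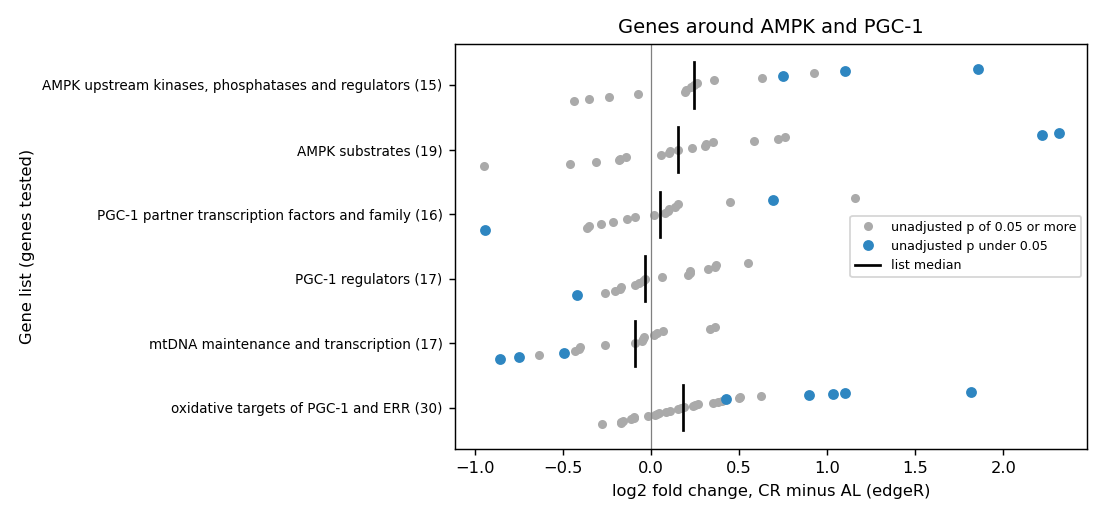
Log2 fold change of CR over AL (edgeR) of the 114 tested genes around AMPK and PGC-1, 1 point per gene and 1 row per list, with blue for an unadjusted p under 0.05 and a black bar at the list median. The medians run from −0.09 for mitochondrial DNA maintenance and transcription to 0.24 for upstream regulators of AMPK, and 0 of the genes were called.

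Genes whose profile over the 8 libraries was most like that of Ppargc1a were found by the root mean square difference of centred log2 CPM, whose median over all genes was 1.70. The nearest 5 were Gcnt1 (0.327), a glycosyltransferase of O-glycan branching, Tesc (0.340), Atp1b1 (0.360), the β1 subunit of the sodium pump, Pitx1 (0.381), a homeobox factor, and Tgfb2 (0.382), a growth factor. Gcnt1 was at 14.3, 8.33, 6.17 and 2.33 CPM in AL and at 88.7, 78.8, 55.9 and 5.56 CPM in CR, with the same AL order as Ppargc1a and CR replicate 4 below AL replicates 1 to 3. For Prkaa2, where the median over all genes was 0.649, the nearest were Serinc3 (0.129), a multipass membrane protein, Ring1 (0.143), a Polycomb subunit, 2310061I04Rik (0.144), Taf1d (0.146), a subunit of the RNA polymerase I selectivity factor, and C1qtnf12 (0.160), a secreted adipokine. Serinc3 was at 91.0 to 118 CPM in AL and 162 to 283 CPM in CR, and like Prkaa2 it did not overlap between diets. The lists of 5 for Ppargc1a and Prkaa2 shared 0 genes.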

How the data were processed

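RNA from the LGs of 4 AL and 4 CR mice was sequenced from transcript 3' ends (single reads of 75 bases). Counts were deposited by the authors after trimming with cutadapt, quality control with FastQC, alignment to mm10 with STAR and counting with HTSeq on the ROSALIND platform, whose versions and strand setting are not given in the sources used here. A second table of log2 values was made by the authors from these counts with RLE size factors. It was recomputed to within 0.000124 and not used further.

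Of 24557 rows, 5 with repeated symbols were dropped. Genes passing filterByExpr were tested with edgeR 4.0.16 (RLE factors, quasi-likelihood F test, limma 3.58.1, R 4.3.3), with Benjamini-Hochberg adjustment. Calls needed both an adjusted p under 0.05 and a change of 1.5-fold or more. The biological coefficient of variation was 34.7%. Fold changes are from the count model, and CPM use RLE-scaled totals. Ratios of paired genes were tested with exact two-sided permutation tests, and shares have exact Clopper-Pearson 95% intervals. These intervals cover counting error only. The sources used here mention no molecular identifiers, so PCR copies may have been counted as separate reads, which would make the intervals too narrow. The labels do not say which libraries, if any, shared a cage or preparation day, and p-values measure the spread between these libraries. No 2 libraries of the same diet agreed within sampling noise.

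Libraries were grouped by their labels. Alternatives were TMM factors, DESeq2 1.42.0, limma voom with quality weights, other filters, no fold threshold, a replicate block, removal of the 50 most counted genes, a parotid score (mean log2 CPM of the parotid markers) as a covariate and leaving out each library.

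The 10 genes, the lists and the markers were chosen with earlier results of these data known. Named genes were all 10, every called gene of a pathway list or otherwise its 2 genes with the smallest p, and the 5 genes nearest in profile to Ppargc1a and Prkaa2. Gene positions are from GENCODE (GRCm38) and promoters from RefSeq (GRCm38.p6). The cornea, the conjunctiva and the reads were not analysed here.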

Additional observations from a re-analysis of the deposited data

How the results depend on the processing

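Of 170 values for the 10 genes over 17 alternatives, 151 kept their direction and side of the threshold and 7 changed sign. Ppargc1a was called in 8 of the 17 and lost its call in the other 9, the covariate fit included, and Prkaa2 gained a call in 4. The number of the 10 genes called higher was 1, and it was 0 with TMM factors and 0 with the parotid covariate, 2 with DESeq2, 2 with limma voom, 2 with the replicate block and 0 to 2 when each library was left out, and 0 were called lower in every setting. Prkaa2 was gained in each fit that called 2. Over all genes, 134 were called higher and 88 lower, against 385 and 317 with DESeq2, 237 and 160 with limma voom, 271 and 165 without a filter, 388 and 312 with the replicate block, and 0 and 0 with the covariate (952 at an unadjusted p under 0.05 in edgeR). Leaving out a library gave 35 to 453 higher and 25 to 247 lower, the highest numbers without CR replicate 4. Of the pathway genes, 0 were called higher, against 6 with DESeq2, 2 with limma voom, 4 without a filter, 1 with at least 10 counts in every library, 5 with the replicate block, 1 without the 50 most counted genes and 0 to 9 with a library left out, 9 without CR replicate 4.

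Log2 fold changes changed sign with the covariate for Prkag1 (−0.34, SE 0.39), Prkag2 (−1.36, SE 0.86), Ppargc1a (−0.37, SE 0.95) and Tfam (0.40, SE 0.69). They also did so when libraries were left out, for Prkab2 (−0.62 without CR replicate 3 to 0.0905 without CR replicate 1, and 0.08 without AL replicate 3) and for Prkag2 (−0.34 without CR replicate 1 to 0.43 without CR replicate 4). The difference in the Prkag2 to Prkag1 ratio ran from −0.38 without CR replicate 1 to 0.0631 without CR replicate 4. The Prkaa2 to Prkaa1 difference was 1.25 to 1.64 with a library left out, with an exact permutation p of 0.0571 without AL replicate 1, and 1.55 and 1.14 with 0.1 and 2 CPM added. With the replicate block it stayed at 1.44, with an exact sign-flip p of 0.125, the smallest 4 pairs can give. The cause of these changes was not tested.

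Same-numbered libraries deviated together with correlations of 0.182, 0.0995, 0.278 and 0.507, not all above 0.1, so the numbers were not taken to pair the mice, although CR replicates 3 and 4 correlated best with their own numbers. CR replicates 1 and 2 correlated best with AL replicates 3 and 4. In the block fit the Ppargc1a adjusted p was 0.000135 and that of Prkaa2 0.0396 (edgeR). List medians near 0 also moved. That of mitochondrial DNA genes (−0.09) was −0.31 with limma voom, −0.30 with the covariate and −0.26 to −0.07 with a library left out, and those of AMPK substrates (0.15) and PGC-1 partners (0.05) were −0.19 and −0.10 with the covariate. That of PGC-1 regulators (−0.03) was 0.07 without AL replicate 4 or CR replicate 1. Leaving out CR replicate 2 gave −0.08 for PGC-1 partners, leaving out CR replicate 3 gave 0.37 for upstream regulators (0.24), and AMPK substrates were at 0.09 without CR replicate 1, 0.26 without AL replicate 1 or 2, and 0.28 without CR replicate 4.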
